A study of Mus musculus with 4 samples.

Results

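The genes described here encode the proteins of the cytosolic ribosome. They were chosen by symbol: names that start with Rpl or Rps and go on with a digit, together with Rplp0, Rplp1, Rplp2 and Rpsa, without kinases, pseudogene names and the paralogs whose symbols end in l or l1. The rule found 77 of 15409 gene rows, 46 for the large subunit, of which 3 form the stalk, and 31 for the small subunit. The rule itself used symbols and no measured value.

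The RNA came from brain septal tissue of mice, in 4 libraries: TCRb-/- replicates 1 and 2, whose mice lack the T cell receptor beta chain, and WT replicates 1 and 2. Replicate 1 of each genotype belongs to experiment 1 and replicate 2 to experiment 2. All mice of both genotypes went through the same stress, 30 minutes of restraint in a plastic cone on 3 days, and were killed 1.5 hours after the last session, so no unstressed group is part of any comparison. Each library pooled the tissue of 4 to 5 mice, and the RNA was taken from a detergent lysate after nuclei and debris had been spun down; strain, age and sex were not stated in what was used here.

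Every ribosome holds a copy of nearly every ribosomal protein, and free ribosomal proteins are degraded, so cells make these proteins in near-equal amounts. Their mRNAs are short and abundant and most start with a run of pyrimidines, the terminal oligopyrimidine or TOP motif, through which mTORC1 signalling controls their translation. In neurons, ribosomes also lie in dendrites and axons, where ribosomal protein mRNAs are found as well.

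Library totals ran from 19988137 to 26210790 reads. The gene that the genotype removes, Trbc2, had 0 reads in both TCRb-/- libraries (CPM are reads scaled to a common library total; a count of 0 allows up to 0.122 and 0.150 CPM) and 6.45 and 3.85 CPM in WT replicates 1 and 2. Markers of neighbouring tissue moved with the experiment, and some differed between the genotypes as well. The 12 choroid plexus markers summed to 2154 and 1319 CPM in experiment 1 (TCRb-/- and WT) and to 6913 and 4204 CPM in experiment 2, the 12 striatal markers to 4642 and 4152 against 1026 and 2546 CPM, and the 10 cortical and hippocampal markers to 1084 and 1047 against 543 and 656 CPM. All 12 choroid plexus markers had a higher mean log2 level in TCRb-/- than in WT. The 17 septal markers listed of 18 summed to 1834 and 2067 CPM in experiment 1 (TCRb-/- and WT) and to 1949 and 2178 CPM in experiment 2. By their mean log2 level, 8 of these 17 were higher in TCRb-/- and 9 lower. In each of these lists every listed marker had reads in all libraries.

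Shared sequence can limit how well these genes are measured, because their mRNAs have many processed copies in the genome. Its effect on the levels was not tested. The mRNA of each gene was taken from the GENCODE M21 annotation of GRCm38 and read in windows of 50 bases. At least 1 window recurred in another annotated gene for 76 of 77 genes, and 48 genes shared over 50 percent of their windows. The median share was 60.0% and the highest 98.6%, for Rps27. In all, 1058 annotated pseudogenes shared a window with these genes, and 9 of them were listed in the files, at 0.325 to 3.94 CPM. Exons of another gene lay over part of the mRNA of 12 genes.

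The first 60 coding bases of 3 genes and of the processed pseudogene nearest to each are shown as examples, with bases that differ from the gene in capitals. Rpl24 (chr16:55966275-55971435, plus strand) and Gm9385 on chromosome 9 did not differ here and were 99.8% identical over 471 coding bases. Rpl23a (chr11:78180932-78183584, minus strand) and Gm10132 on chromosome 14 did not differ here either and were 99.8% identical over 468 bases. Rps27 (chr3:90212522-90213651, minus strand) and Gm17241 on chromosome 15 differed at 2 bases, both in the stretch shown, and were 99.2% identical over 252 bases.
Rpl24: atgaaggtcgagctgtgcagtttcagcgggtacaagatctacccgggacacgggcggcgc
Gm9385: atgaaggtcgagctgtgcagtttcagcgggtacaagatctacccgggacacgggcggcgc
Rpl23a: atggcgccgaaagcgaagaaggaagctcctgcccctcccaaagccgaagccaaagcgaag
Gm10132: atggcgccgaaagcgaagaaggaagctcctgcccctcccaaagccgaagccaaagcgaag
Rps27: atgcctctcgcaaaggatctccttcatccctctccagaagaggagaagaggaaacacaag
Gm17241: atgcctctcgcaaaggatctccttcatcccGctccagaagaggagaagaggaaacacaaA
A read that lies inside a stretch without differences can be placed at either gene, while a read across a base in capitals differs between Rps27 and Gm17241. The rule for counting reads with several placements is not given in the sources used here.

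The starts of the genes share short sequence features. RefSeq (GRCm38.p6) held a promoter window for 57 of the 77 genes, 250 bases before to 50 bases after the annotated start. On the gene's own strand and within 25 bases of the start, CTTTC stood in 31.6% of them against 7.87% of all 27025 genes with a window. With the runs CTTTT and, as a further variant, CTTCC counted as well, 52.6% had a match against 23.4%. Searched on both strands, CTTTC stood in 38.6% against 14.4%, CTTTT in 17.5% against 11.7% and CTTCC in 49.1% against 24.6%. CCGGAAG, a motif bound by ETS factors, stood in 42.1% of the windows on either strand against 9.93%; its reverse complement contains CTTCC, so the 2 counts overlap. TATAAA, on either strand, stood in 10.5% against 15.7%. These matches describe letters in a window and show no binding and no effect.

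The 30 bases around the start are given for 6 genes, 15 before it and 15 from it on, with the first match in capitals. Later matches, as in Rpl35, Rplp2 and Rps7, are not marked. Rpl38, Rpl35, Rplp2 and Rps6 passed the test between experiments described below, and Rps26 and Rps7 had nearly the same level in both experiments. The windows are at chr11:114668565-114668594 on the plus strand for Rpl38, chr2:39005117-39005146 on the minus strand for Rpl35, chr7:141447636-141447665 on the plus strand for Rplp2, chr4:86857353-86857382 on the minus strand for Rps6, chr10:128626492-128626521 on the minus strand for Rps26 and chr12:28635939-28635968 on the minus strand for Rps7.
Rpl38: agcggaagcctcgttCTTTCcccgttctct
Rpl35: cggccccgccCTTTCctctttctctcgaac
Rplp2: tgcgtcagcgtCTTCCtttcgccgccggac
Rps6: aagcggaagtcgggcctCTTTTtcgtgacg
Rps26: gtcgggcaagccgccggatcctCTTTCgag
Rps7: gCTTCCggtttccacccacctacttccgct
The 6 were taken from genes with a match in this window, so that each holds one was fixed by the choice.

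All 77 genes were listed in all 4 libraries. Together they took 0.446% of the reads in TCRb-/- replicate 1 (exact 95% interval 0.4433 to 0.4485), 0.525% in TCRb-/- replicate 2, 0.447% in WT replicate 1 and 0.519% in WT replicate 2. The replicates of experiment 2 thus lay above those of experiment 1 in both genotypes, and the genotypes lay close together in each experiment. In CPM the sums were 4459, 5251, 4471 and 5193 in the same order. The 76 genes for mitochondrial ribosomal proteins summed to more in every library, 5148, 5979, 5183 and 5967 CPM. In mean CPM over libraries the cytosolic genes ran from 0.589 to 303 with a median of 54.0; 11 reached 100 CPM and 2 lay under 10 CPM.

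**Figure D1:**
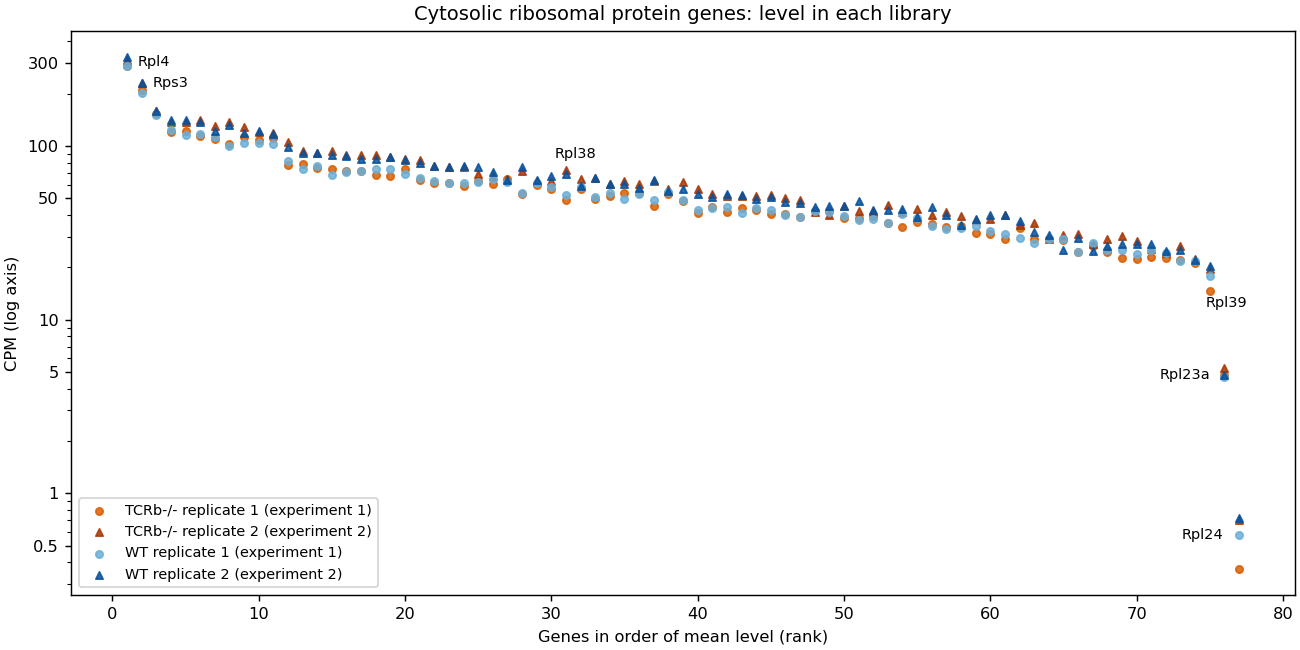
Level (CPM, log axis) of each of the 77 genes in the 4 libraries, from the highest mean level on the left to the lowest on the right, circles for experiment 1 and triangles for experiment 2, orange for TCRb-/- and blue for WT. Triangles lie above circles for most genes, with little between the colours, and Rpl23a and Rpl24, at the right end, lie under 10 CPM.

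Levels of different genes were compared per length, as CPM per kilobase of mRNA (RPKM), using the median length of each gene's protein-coding transcripts. The median gene had 77.1 RPKM, against 12.3 RPKM over all 12905 rows with a length, and 49 of the 77 lay within 2 times of that median. For the mitochondrial ribosomal proteins the median was 63.9 RPKM. It was 134 RPKM for the 47 genes with proteasome (Psm) symbols and 291 RPKM for the 86 genes with respiratory chain symbols (Nduf, Cox and Atp5) and a length. Per coding length the cytosolic genes had a median of 116 and the mitochondrial ones of 121, so the order of these 2 groups turns with the length used.

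Among the highest genes was Rps3, which lines the mRNA entry channel and has a second role in DNA repair, with 221 and 241 RPKM in the TCRb-/- libraries (replicate 1, then 2) and 213 and 242 in the WT ones. Rps14, whose partial loss underlies the anaemia of a human myelodysplastic syndrome, had 191, 237, 195 and 230 RPKM in the same order. The ranges of these 2 genes over libraries overlap, though Rps3 lay above Rps14 in each library. Their order turned with the length used: by merged exon length Rps3 had a mean of 48.7 and Rps14 of 53.4. No test compared them. Rpl4 followed with 197 RPKM as the mean over libraries, Rpl3, which reaches into the peptidyl transferase centre, with 190, and the stalk protein Rplp1 with 182.

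At the bottom stood Rpl24, with 9, 14, 15 and 16 reads in the same order, or 0.541, 1.03, 0.845 and 1.06 RPKM. Its mean was 0.869 RPKM, the lowest of the 77, and it was the 1 gene under the filter of the tests. Of its windows 81.7% recurred elsewhere, exons of other genes covered 71.5% of its bases, and 10.5% of its windows were free of both. The largest overlap was with Gm28037 on the same strand. Rpl23a had 8.57, 9.47, 8.31 and 8.55 RPKM, with 82.6% of windows shared and 55.4% of bases under exons of other genes. Its largest overlap was with Tlcd1 on the opposite strand. The library kit does not mark strand, so reads of Rpl23a and Tlcd1 cannot be told apart where they overlap. The same holds for Rpl35 and Wdr38, its largest overlap, with 68.3% of Rpl35 bases under exons of other genes. Rpl24 and Rpl23a encode core parts of the ribosome, and whether their low values come from the copies and overlaps was not tested.

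The other low genes had other features. Rps20 had 7.13 RPKM with 92.6% of windows free, and its protein-coding transcript length in the annotation was 3706 bases, the longest of the 77. Rpl22, which has a close paralog and is not essential in mice, had 13.9 RPKM with 94.8% free. The low place of these 2 genes depended on the length used. Per coding length Rps20 and Rpl22 had 74.0 each, ranks 57 and 58 of the 77, while Rpl23a and Rpl24 kept the lowest ranks, 76 and 77. Rpl27a had 25.5 and Rps23, a protein of the decoding centre, 25.6 RPKM. Across the 77 genes the share of free windows and the level per length had a Spearman rho of 0.201, and the 25 genes with at least 50 percent free had a median of 82.8 RPKM against 76.6 for the other 52. Rps27, with 1.35% free, had 101 RPKM, above the median, and Rpl13a, with 8.07% free, had 170 RPKM. These points share their libraries and the length table, and no test was made of them.

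**Figure D2:**
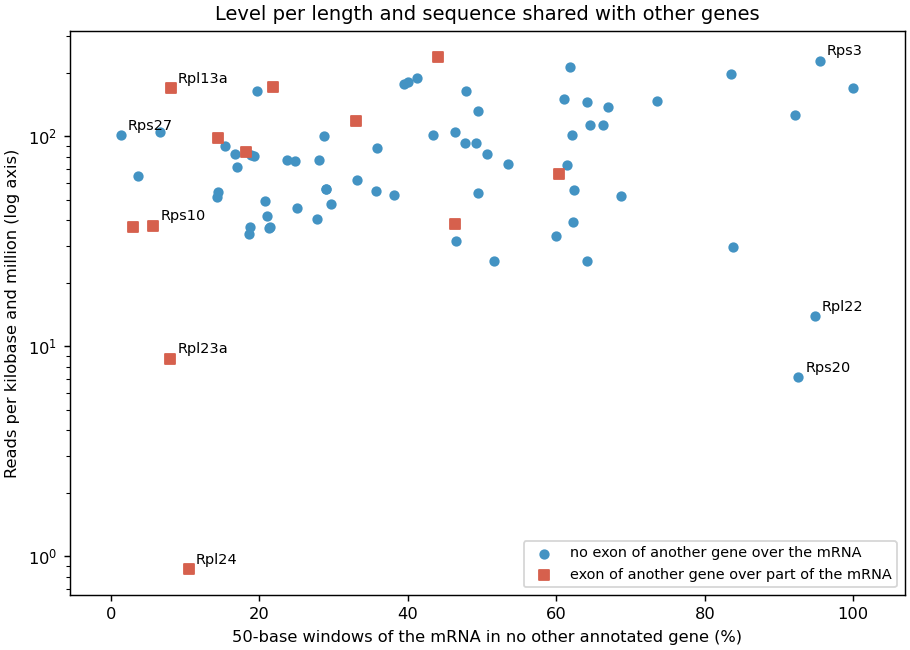
Level per length (RPKM, mean of 4 libraries, log axis) of each of the 77 genes against the share of its 50-base windows found in no other annotated gene; squares mark genes with an exon of another gene over part of the mRNA. Rpl24 and Rpl23a are low with few free windows, while Rps20 and Rpl22 are low per mRNA length, though not per coding length, with over 90 percent free.

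The comparison of genotypes asked whether septal ribosomal protein mRNAs differed between stressed TCRb-/- and WT mice. No difference was detectable. The summed level was 4855 ± 560 CPM in TCRb-/- and 4832 ± 510 CPM in WT (SD, n = 2 each), a ratio of 1.00. Of the 76 genes tested, limma called 0 at an adjusted p under 0.05, with 0% of all 13912 rows called, and 0 at an unadjusted p under 0.05, which 0.309% of all rows reached. Trbc2, which the genotype removes, was not called in this fit either (difference -2.59, unadjusted p 1.57e-04 in limma). A count of 0 calls here is therefore weak evidence, since the fit missed even the loss of a gene. The median log2 difference, TCRb-/- minus WT on the log2(CPM + 1) scale, was 0.010, beside 0.001 over all rows, and single genes ran from -0.16 to 0.14 with standard errors of 0.12 to 0.24. In bulk tissue, fewer cells of a type and less RNA per cell cannot be told apart. With 2 libraries against 2, the smallest two-sided p of an exact permutation test is 0.333.

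The experiments were paired by the labels, so the same comparison was made with the experiment as a block. It called 0 of the 76 genes, against 0.0144% of all rows (2 rows, neither of them a ribosomal protein gene). These rows were Trbc2 (-2.59) and the choroid plexus marker Ttr (0.85), each with an adjusted p of 0.0323 in limma. None of the 76 had an unadjusted p under 0.05, which 5.64% of all rows reached. Of the 12 choroid plexus markers, 12 reached it, all higher in TCRb-/-, and of the 17 septal markers 10, in either direction. The part of such tissue differences in the comparison of genotypes was not tested. With the block the standard errors of the 76 genes lay between 0.07 and 0.16. A p above the threshold does not show that the levels were equal.

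The gene highest in TCRb-/- was Rpl22, whose loss in mice blocks the development of alpha beta T cells. Its TCRb-/- libraries (replicate 1, then 2) had 28.8 and 30.8 CPM and its WT libraries 29.0 and 25.1 CPM, a difference of 0.14 (SE 0.15, unadjusted p 0.402 in limma). The libraries overlap, and the difference was -0.01 in experiment 1 and 0.28 in experiment 2. Rpl36 (0.12), Rpl11 (0.10), Rps15 (0.10) and Rpl23a (0.08) were also among the highest in log2 difference.

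The gene lowest in TCRb-/- was Rpl39, a very short protein of the exit tunnel encoded on the X chromosome. Its TCRb-/- libraries had 14.6 and 19.7 CPM and its WT libraries 17.8 and 20.5 CPM, a difference of -0.16 (SE 0.20, unadjusted p 0.458 in limma). The libraries overlap, with TCRb-/- replicate 1 the lowest. Rps12 had -0.11, and Rpl5, Rps15a and Rpl23 had -0.08 each.

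Few genes kept their genotypes apart. Both TCRb-/- libraries lay above both WT libraries for Rpl31 and Rpl23a, 2 of 76 where 9.76% of all rows did so, and below for Rps2 and Rps23, 2 of 76 where 8.04% did so. Rpl31, near the tunnel exit, had 64.7 and 64.6 CPM in TCRb-/- against 61.7 and 63.6 in WT, and Rps2, of the mRNA entry channel, 42.1 and 41.8 against 42.1 and 44.4 CPM. These gaps are within a few percent of the level. The genotype difference had the same sign in both experiments for 40 genes, 19 higher (27.0% of all rows) and 21 lower (24.5%), and opposite signs for 36. In experiment 1, 30 genes were higher and 46 lower in TCRb-/-, from -0.27 to 0.19, and in experiment 2, 44 were higher and 32 lower, from -0.18 to 0.28. The spread of these differences over the 76 genes was 0.080 and 0.084 (SD, experiments 1 and 2), beside 0.204 and 0.234 over all rows. Across the 76 genes the differences of the experiments had a Pearson r of 0.0719; the points share their libraries.

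**Figure D3:**
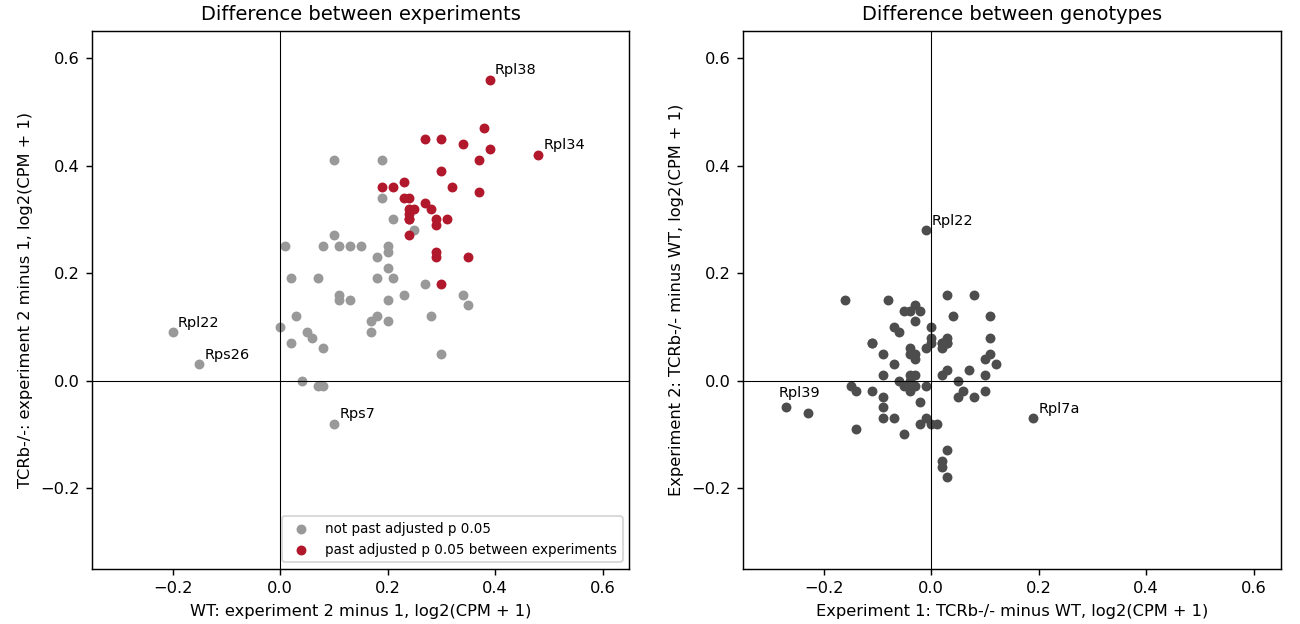
Each point is 1 of the 76 genes tested, on the log2(CPM + 1) scale; left, the difference between experiments in WT (horizontal) and TCRb-/- (vertical), right, the difference between genotypes in experiment 1 (horizontal) and experiment 2 (vertical). On the left nearly all points lie above 0 on both axes, and on the right they lie around 0 on both.

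The labels also set experiment 1 against experiment 2, and here the genes differed in 1 direction. Of the 76 genes, 31 were higher in experiment 2 at an adjusted p under 0.05 in limma, where 8.95% of all rows were called higher, and 0 were lower, where 14.7% of all rows were called lower. The median difference, experiment 2 minus experiment 1, was 0.23 on the log2(CPM + 1) scale, beside -0.03 over all rows, with single genes from -0.06 to 0.48 and called genes from 0.24 to 0.48. At an unadjusted p under 0.05, 52 were higher (16.2% of all rows) and 0 lower (23.0%). The summed level was 4465 ± 8.79 CPM in experiment 1 and 5222 ± 41.2 CPM in experiment 2 (SD, n = 2 each), a ratio of 1.17. Both libraries of experiment 2 lay above both of experiment 1 for 68 genes (30.1% of all rows), below for 0 (37.2%), and 8 genes overlapped. The markers of choroid plexus, striatum and cortex given above moved with the same contrast, as everything else that differed between the experiments would, and their part in the result was not tested.

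The difference was present in each genotype. Within TCRb-/-, 72 of 76 genes were higher in replicate 2, where 46.7% of all rows were, and within WT, 74 of 76, where 46.2% of all rows were. Across the 76 genes the 2 differences correlated at 0.617 (Pearson) and 0.601 (Spearman), a description over genes of the same libraries. With genotype as a term, limma called 29 genes higher (9.29% of all rows), all of them among the 31. The calls rest on few libraries: without TCRb-/- replicate 1 or without TCRb-/- replicate 2 there were 6, without WT replicate 1 there were 11 and without WT replicate 2 there were 18. Moderation without a mean-variance trend called 0 of the 76, with the median difference the same. Other scalings moved the balance over all rows: quantile normalization called 43 genes higher and 0 lower (11.7% and 11.5% of all rows), and median-of-ratios scaling 36 and 0 (11.1% and 12.6%).

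In the stalk, the flexible arm that recruits translation factors, Rplp1 had 77.4 and 81.5 CPM in experiment 1 (TCRb-/- and WT) and 106 and 98.5 CPM in experiment 2, a difference of 0.36 (adjusted p 0.0141 in limma). Rplp2, its partner in the stalk dimers, had 72.2 and 70.8 against 89.2 and 87.9 CPM, a difference of 0.30 (adjusted p 0.0177 in limma). Rplp0, which anchors both to the large subunit, had 111 and 102 against 119 and 117 CPM, a difference of 0.16 (adjusted p 0.141 in limma) that did not pass. All 3 had higher values in both libraries of experiment 2, and whether Rplp0 differed from its partners was not tested.

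Of the 42 other large-subunit genes tested, 15 were called higher and 0 lower, where 8.95% and 14.7% of all rows were, and their median difference was 0.23. Rpl38, needed in mouse embryos for the translation of certain Hox mRNAs, had 48.7 and 52.5 CPM in experiment 1 (TCRb-/- and WT) and 72.4 and 69.1 CPM in experiment 2. The difference of 0.48 (SE 0.08, adjusted p 0.00827 in limma) was the highest of the 76, and the libraries of the experiments did not overlap. Rpl34 had 53.1 and 53.8 against 71.5 and 75.4 CPM (0.45, SE 0.07, adjusted p 0.00801 in limma). Rpl35, near the tunnel exit where the signal recognition particle docks, had 29.3 and 31.3 against 40.1 and 39.9 CPM (0.39, SE 0.09, adjusted p 0.0179 in limma).

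Large-subunit genes known from disease or from the assembly of the peptidyl transferase centre varied. Rpl10, encoded on the X chromosome and among the last proteins to join the subunit, had 40.8 and 42.9 against 51.9 and 50.6 CPM (0.29, adjusted p 0.0355 in limma). Rpl39 had a similar difference of 0.30 that did not pass (adjusted p 0.117 in limma). Rpl5 (0.14, adjusted p 0.199) and Rpl11 (0.13, adjusted p 0.329 in limma), which bind MDM2 with the small ribosomal RNA they carry when ribosome assembly fails, did not pass. Rpl41, whose product is the shortest of all ribosomal proteins, had 56.5 and 57.8 against 64.4 and 58.5 CPM (0.10, adjusted p 0.372 in limma).

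Of the 31 small-subunit genes, 14 were called higher and 0 lower, where 8.95% and 14.7% of all rows were, and their median difference was 0.26. Rps27a, made as a fusion with ubiquitin that is cut off after translation, had 45.1 and 48.7 CPM in experiment 1 (TCRb-/- and WT) and 62.7 and 63.7 CPM in experiment 2 (0.42, SE 0.08, adjusted p 0.0108 in limma). Rps21 had 49.2 and 50.7 against 65.5 and 65.7 CPM (0.39, SE 0.07, adjusted p 0.0113 in limma). In both genes the 2 libraries of an experiment lay far closer to each other than to those of the other experiment.

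Rps6, whose phosphorylation is the usual readout of mTORC1 signalling, had 68.4 and 73.7 against 88.3 and 84.3 CPM (0.28, adjusted p 0.0322 in limma). Rpsa, also known as the laminin receptor, had 0.13 (adjusted p 0.223), Rps4x, of the X chromosome, 0.13 (adjusted p 0.325) and Rps19, the gene most often mutated in Diamond-Blackfan anaemia, 0.20 (adjusted p 0.0908 in limma), none of which passed. The 4 X-linked genes were higher in experiment 2 in both genotypes, and 1 of them, Rpl10, was called.

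A few genes stood at or near 0 in this contrast. Rps26, which contacts the mRNA upstream of the start codon, had 26.7 and 27.8 CPM in experiment 1 (TCRb-/- and WT) and 27.4 and 25.0 CPM in experiment 2, a difference of -0.06 (SE 0.10). Rpl22 had 28.8 and 29.0 against 30.8 and 25.1 CPM, a difference of -0.05 (SE 0.11). Under quantile normalization, which moves all rows relative to each other, these 2 values turned to 0.020 and 0.022. Rps7 (0.01), Rpl31 (0.02), Rps2 (0.03) and Rpl27a (0.03) had differences well within their standard errors of 0.07 to 0.09. Their libraries overlapped between experiments.

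Genes that belong to the ribosome under other symbols were read from the same fit. Fau, which encodes a small-subunit protein fused to a ubiquitin-like one, had 48.4 and 51.0 against 73.3 and 69.3 CPM (0.51, adjusted p 0.00669 in limma). Rack1, listed under its older symbol Gnb2l1 and a signalling scaffold on the small subunit, had 117 and 119 against 133 and 139 CPM (0.20, adjusted p 0.0531 in limma). Fau passed and Rack1 did not.

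Among the paralogs that the naming rule leaves out, Rpl22l1 stood apart from Rpl22. It had 19.1 and 22.3 CPM in experiment 1 (TCRb-/- and WT) and 31.8 and 29.7 CPM in experiment 2 (0.55, adjusted p 0.0134 in limma), where Rpl22 had -0.05. The difference between these 2 genes was not tested. Rps27l, a target of p53, also passed (0.42, adjusted p 0.0165 in limma). Rpl36al (0.31, adjusted p 0.0513), Rps4l (0.26, adjusted p 0.130) and Rpl7l1 (0.12, adjusted p 0.217 in limma) did not pass. Neither did the biogenesis factors Rsl24d1 (0.16) and Rsl1d1 (0.20) or Rps19bp1 (0.18), which binds Rps19. Rpl3l lay under the filter, and Rpl10l, Rpl26l1, Rpl39l and Rplp0l were not found among the listed rows.

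Groups of genes with symbols of other large complexes moved the same way. The symbols also take in genes that are not subunits, such as Cox10, Cox15 and Psmc3ip. Of the 76 mitochondrial ribosomal protein genes, 31 were called higher in experiment 2 and 0 lower, with a median of 0.23, the same counts and median as for the cytosolic genes. Of 86 genes with Nduf, Cox or Atp5 symbols, 57 were called higher and 0 lower (median 0.31), and of 47 with Psm symbols, 23 higher and 0 lower (median 0.21). Of all rows, 8.95% were called higher and 14.7% lower. By genotype, 0 genes of each of these groups were called. No test compared the groups with each other.

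**Figure D4:**
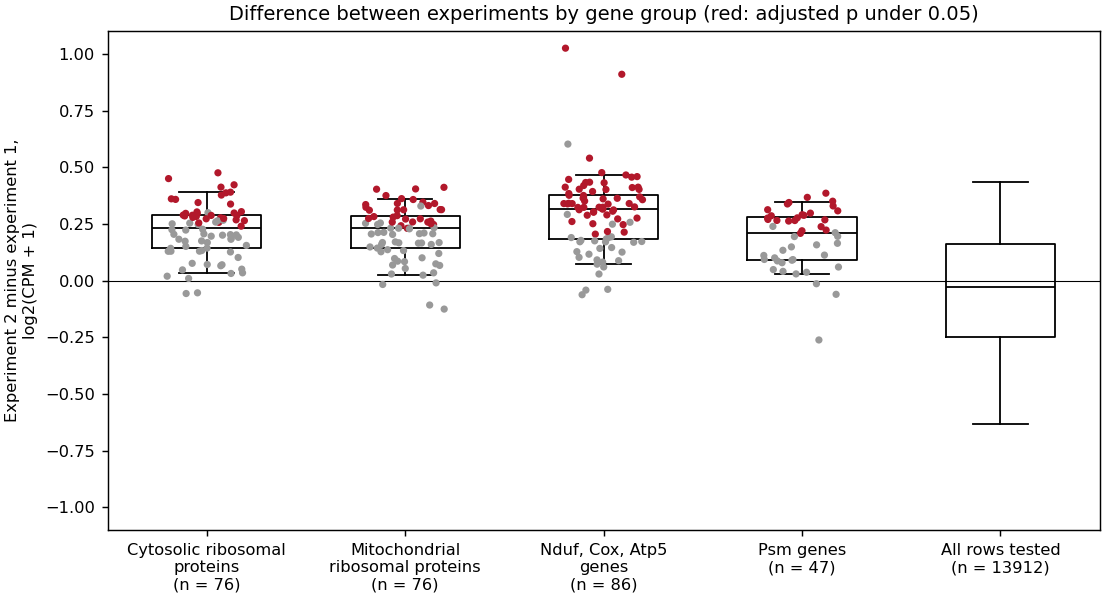
Difference between experiments on the log2(CPM + 1) scale for genes of 4 groups and for all rows tested; boxes give the quartiles with whiskers at the 5th and 95th percentiles, and points single genes, red when called. The medians of the 4 groups lie between 0.21 and 0.31, and that of all rows at -0.03.

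Genes listed as sharing the TOP motif, or as helping to make and run ribosomes, were counted in the same way. No test compared them with the ribosomal protein genes. By genotype, 0 genes of each list were called. Between experiments 8.95% of all rows were called higher and 14.7% lower, with a median of -0.03. A list of 25 other mRNAs was set by name as carrying the TOP motif, which was not checked in them. It holds translation genes and some others, such as Vim, Nap1l1 and Hnrnpa1. Of the 25, 4 were called higher and 0 lower (median 0.12): Fau, given above, Tpt1, and Naca and Btf3, both partners in the complex that shields nascent chains. Of 39 ribosome biogenesis genes, 5 were called higher in experiment 2 (12.8%) and 1 lower (2.56%), with a median of 0.02, so the share called higher lay near that of all rows. Nop10, a core protein of the particles that place pseudouridine in ribosomal RNA, rose by 0.31 (adjusted p 0.0139 in limma), and Ltv1, which helps to export the small subunit, by 0.31 (adjusted p 0.0463 in limma). The other genes called higher were Nop56, Nop58 and Eif6. The gene called lower was Ubtf, a factor of ribosomal RNA transcription (-0.35, adjusted p 0.0156 in limma).

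In the next 4 lists the share called higher, from 5.56% to 11.1%, lay near the 8.95% of all rows, so the single genes named are no result about their lists. Of 11 hosts of small nucleolar RNAs, 1 was called higher, Gas5 (0.31, adjusted p 0.0196 in limma), and 0 lower. Of 18 genes of mTORC1 and TOP control, 1 was higher, Rheb, the activator of mTORC1 (0.32, adjusted p 0.0162 in limma), and 2 were lower, Tsc1 and Rptor. Tsc1, which holds Rheb in check, fell by 0.61 on the log2 scale (adjusted p 0.0113 in limma). Of 10 ribosome-associated and quality-control genes, 1 was higher and 0 lower (median -0.02); it was Zcrb1, known from the minor spliceosome (0.34, adjusted p 0.0210 in limma). Of 9 p53 targets tested, 1 was higher, Phlda3 (0.42, adjusted p 0.00746 in limma), and 0 lower.

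Transcript length ran along with the difference between experiments. The 77 genes had a median mRNA length of 712 bases (368 to 3706), against 2273 bases over all rows with a length. Across the 76 genes tested, length and difference had a Spearman rho of -0.352, and across all 12905 rows of -0.373: shorter mRNAs tended to be higher in experiment 2 in both. Called genes had a median length of 614 bases and those not called of 769.5 bases. Mean CPM had a rho of 0.210 with the difference, and the share of free windows of -0.0814. Among the 25 genes with at least 50 percent of windows free, 9 were called (median 0.20), and among the other 51 tested, 22 (median 0.25); all were higher in experiment 2, where 8.95% of all rows were called higher and 14.7% lower. These relations are over genes of the same libraries, which share depth and preparation, and the part of length in the result was not tested.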

How the data were processed

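Libraries were made with a SMARTer low-input kit, per the labels' protocols. The submitters' processing notes name HISAT2 2.1.0, SAMtools 1.3, HTSeq 0.9.1, R 4.0.5, limma 3.46.0 and the build mm10; no settings are given. The deposited values were log2 CPM with 0.5 reads added, and whole reads came out for all values within 0.001 reads. The 17 spike-in rows were left out.

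CPM of the library total was transformed to log2(CPM + 1), which understates changes of low genes. The 13912 rows with a mean of at least 1 CPM were tested with limma 3.58.1 (R 4.3.3; mean-variance trend, two-sided, Benjamini-Hochberg over all rows, threshold 0.05), with genotype or experiment as the only term, and the code was tested on simulated data. Values have the unit log2, so no count model was run. Same-numbered libraries share an experiment in the labels; across rows their deviations from the genotype mean correlated at 0.719. Each library is a pool, so p-values measure the spread between pools and not between mice. Without the block, that spread in the genotype fit includes the difference between experiments. In the experiment fit without genotype as a term it includes the difference between genotypes. Intervals are exact Clopper-Pearson and, with floors of 3 reads, cover counting error only, since amplified reads are not independent molecules.

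The ribosomal protein genes were picked out by symbol, but this group and the other lists were chosen for study with earlier results of these data known. Named were the 6 highest and 6 lowest genes per length, by genotype and by experiment, a fixed set, and ribosomal genes and paralogs under other symbols; genes given with values outside that rule, such as Rps27 and Rpl13a, were picked with their values in view, and some genes under the rule are not reported here. The alternatives were pseudocounts of 0.1 and 5, no filter or 10 CPM, median-of-ratios and quantile scaling, no trend, voom weights, each library left out, the block, other lengths and, added after seeing the data, genes with at least 50 percent free windows. Other steps used Python 3.11.15 (pandas 2.3.3, numpy 2.4.6, matplotlib 3.10.9, scipy 1.17.1).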

Additional observations from a re-analysis of the deposited data

How the results depend on the processing

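With all libraries kept, 318 of 331 gene values kept their direction and their side of the threshold, and 57 of 64 summary values stayed close: counts within 1.5 times, medians within the spread between replicates. With 1 library left out, it was 117 of 148 gene values and 15 of 24 summary values; the latter include genotype medians near 0 that changed sign within that spread. Called rows by genotype rose from 0 to 2 with the replicate block, which called none of the ribosomal protein genes, and lay between 0 and 47 with a library left out. Calls between experiments among the ribosomal protein genes were 0 without a trend (629 over all rows), 9 among the 25 genes with at least 50 percent free windows (fewer genes by construction) and 6 to 18 with a library left out (1406 to 3390 over all rows). Quantile normalization gave 43 calls and a median difference of 0.290, with 11.7% of all rows higher and 11.5% lower, and median-of-ratios scaling 36 calls and 0.265, with 11.1% higher and 12.6% lower, against 8.95% and 14.7% by library totals. The median level per length was 25.4 by merged exon length and 116 by coding length. Under quantile normalization the difference between experiments turned to 0.020 for Rps26 and 0.022 for Rpl22. With 1 library left out, the median genotype difference of the ribosomal protein genes ran from -0.119 to 0.146, and 12 single genes changed sign. By genotype the ranges were -0.366 to 0.043 for Rpl39, -0.208 to 0.044 for Rps15a, -0.259 to 0.108 for Rpl23, -0.091 to 0.282 for Rps15, -0.000 to 0.193 for Rpl11 and -0.025 to 0.271 for Rpl36. By experiment they were -0.119 to 0.006 for Rps26, -0.195 to 0.089 for Rpl22, -0.069 to 0.088 for Rps7, -0.014 to 0.053 for Rpl31, -0.011 to 0.074 for Rps2 and -0.004 to 0.073 for Rpl27a. A lone library was taken to vary like the others, and the cause of these changes was not tested. Depth limits Rpl24, with 9 to 16 reads a library, and Rpl23a, with 106 to 122.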
